A study of Rattus norvegicus with 13 samples.

Results

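The genes described here are the TNF superfamily ligands other than Tnf, the lymphotoxins and Fasl, as measured in coronary arteries of old and young rats. They were taken by symbol from the platform annotation, as every probe whose symbol starts with Tnfsf together with Cd70 and Cd40lg. This gave 9 of the 96 gene probes of the array: Tnfsf4, Tnfsf8, Tnfsf9, Tnfsf10, Tnfsf11, Tnfsf12, Tnfsf14, Cd40lg and Cd70. The study used an apoptosis-focused array on total RNA of septal coronary arteries from F344 rats, an inbred strain common in work on ageing. Of the 13 arrays, 6 came from rats aged 26 months, called aged here, and 7 from rats aged 3 months, called young. The labels record increased endothelial apoptosis, by TUNEL and by DNA fragmentation, for the aged vessels. They name no treatment, no transgene and no sex, and do not say whether an array stands for 1 animal or a pool, so that the p-values measure the spread between arrays, which may be partly technical.

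TNF superfamily ligands are mostly trimeric membrane proteins of immune and stromal cells, which can be cut off the membrane and then act as soluble cytokines. They bind receptors of the TNF receptor superfamily, some of which carry a death domain and can start caspase activation, while others recruit TRAF adaptors and switch on NF-kappaB and survival genes. In the vessel wall they are best known for signals between leukocytes, platelets and endothelium, for the regulation of endothelial growth and death, and, in the case of Tnfsf11, for calcification.

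A probe's value is its signal over that of beta-actin on the array, rounded to 2 decimals, and a blank is a probe with no deposited value there. The sources used here do not say what makes a value blank. Of the 96 gene probes, 52 to 80 had a value on an array, with 29.5 ± 8.73 blanks (SD, n = 6) per aged array and 35.6 ± 7.83 (SD, n = 7) per young array, a difference that did not exceed the spread between arrays (exact two-sided permutation p = 0.21). Over the 15 gene probes measured on every array the mean log2 ratio was -0.25 ± 0.35 on aged and -1.06 ± 0.86 on young arrays, with young replicates 1 and 2 lowest. The number of arrays limits the precision, and of 19 cell type markers 1 (Cd40) was on the array, so that the labelled tissue could not be checked. In RNA of whole vessels, fewer cells of a type and less RNA per cell cannot be told apart.

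Tnfsf12, also known as TWEAK, is a ligand that acts on endothelial cells and smooth muscle through its receptor Tnfrsf12a and promotes inflammation, angiogenesis and, in some cells, death. It had a value on 4 of 6 aged arrays and on 0 of 7 young arrays. The ratios were 0.11, 0.40, 0.04 and 0.10 on aged replicates 2, 3, 4 and 5, and the probe was blank on aged replicates 1 and 6. On the arrays with a value the mean was 0.163 ± 0.161 (SD, n = 4). The aged arrays thus differed among themselves, from blank to a ratio that was the highest of any Tnfsf12 spot on aged replicate 3, and the young arrays gave no ratio to set beside them. As shares, 66.7% of aged arrays (exact Clopper-Pearson 95% interval 22.3 to 95.7%) and 0% of young arrays (0 to 41.0%) had a value. The intervals overlap.

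Tnfsf12 was singled out for this pattern, so its counts are a description. Of the 96 gene probes it was the 1 (1.04%) with values on aged arrays and none on young arrays, and 0 probes (0%) had values on young arrays and none on aged arrays. Fisher's exact test of arrays with a value called 0 of 96 probes (0%) after Benjamini-Hochberg adjustment, with an adjusted p of 1 for Tnfsf12. At an unadjusted p under 0.05 it marked 2 probes (2.08%), Tnfsf12 and the unnamed probe 20, and none of the other 8 ligands. For Tnfsf12 that unadjusted Fisher's exact p of 0.021 became 0.061 with any 1 of the 7 young arrays left out, the same each time since all 7 were blank. It was 0.010 without aged replicate 1 or 6, and 0.045 without aged replicate 2, 3, 4 or 5. With a ratio of at least 0.05 required it was 0.070. An exact McNemar test over the 6 same-numbered pairs (replicate block) gave 0.125. That is the smallest p this test can give for the 4 pairs in which only 1 array had a value. For a probe with a value on 4 arrays, 0.021 is the smallest p that Fisher's exact test can give. The p-values with arrays left out follow from the same counts and add no support. Over all patterns of 6 and 7 arrays the smallest Fisher's exact p is 0.00058, which a lone probe would carry to an adjusted 0.056. Fisher's test could therefore not have called a lone probe.

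The 4 arrays with a Tnfsf12 value were spread over arrays with many and with few values overall. Aged replicates 2 and 3, both with a Tnfsf12 ratio, had 56 and 59 gene probes with a value. These are fewer than on 5 and 3 of the 7 young arrays. Aged replicates 4 and 5, also with a Tnfsf12 ratio, had 80 and 69, fewer than on 0 and 1 of the 7 young arrays. Whether array-wide detection bears on the Tnfsf12 blanks was not tested. Aged replicate 1 had 71 such probes and no Tnfsf12 ratio, and young replicate 7 had 75 and none. Aged replicate 3, with the Tnfsf12 ratio of 0.40, was at the same time the aged array with fewest ligands, 4 of 9. Ratios as low as 0.01 to 0.03 were deposited for other probes on each young array. With a ratio of at least 0.05 required, Tnfsf12 counted on 3 aged arrays and 0 young arrays. With every blank set to 0.01, the smallest deposited ratio, its log2 difference was 2.35 (SE 0.77, adjusted p = 0.26 by limma over 96 probes), a value that the filling sets.

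**Figure D1:**
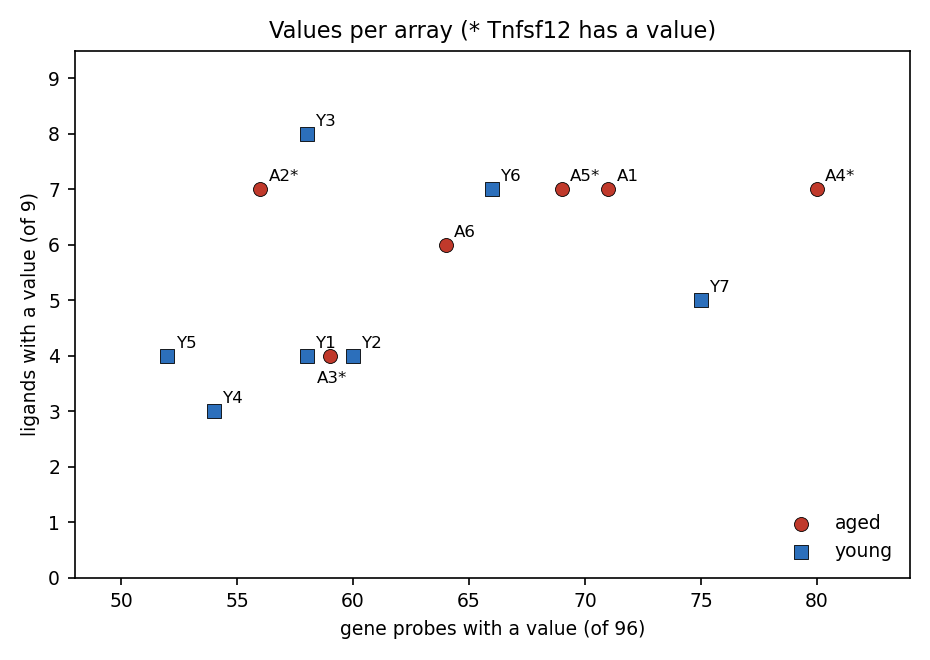
Number of ligands with a value (of 9) against the number of gene probes with a value (of 96), 1 point per array, with aged arrays as A1 to A6 and young arrays as Y1 to Y7. Asterisks mark the 4 arrays with a Tnfsf12 value, all of them aged and spread from 56 to 80 gene probes.

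The probes whose values and blanks fell on the arrays most as those of Tnfsf12 did were Cdkn1a, the cell cycle inhibitor p21, and Cidea, a cell death effector related to the DNA fragmentation factor. Cdkn1a had the same status as Tnfsf12 on 11 of 13 arrays and a value on 3 aged arrays and 1 young array. Cidea had it on 10 of 13 arrays, with a value on 5 aged arrays and 2 young arrays. Bcl2l11 (Bim, a BH3-only killer protein), Casp8ap2 (a caspase-8 associated protein) and Cideb followed with 9 arrays each, a count shared by 9 probes in all. Shared blanks count toward these numbers, and a probe blank on every array would also reach 9. Arrays with a value for both numbered 3 for Cdkn1a, 4 for Cidea and Bcl2l11, and 2 for Casp8ap2 and Cideb. Over the other 95 gene probes the median was 6 arrays. Among the ligands, Cd40lg, Cd70 and Tnfsf9 had the status of Tnfsf12 on 7 arrays and Tnfsf4 on 3.

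Of the 9 ligands, 6 had a value on a larger share of aged than of young arrays and 3 (Tnfsf11, Tnfsf4 and Tnfsf9) on a smaller share, against 47 and 34 of the 96 gene probes, with 15 equal. In the aged group 38 of 54 ligand cells (70.4%) held a value and in the young group 35 of 63 (55.6%). For the other 87 gene probes the shares were 69.2% and 63.7%. Without Tnfsf12 the ligands stood at 70.8% and 62.5%, beside those of the other probes. None of the ligands had a value on all 13 arrays, which 15 of the 96 gene probes did. Aged arrays held 4 to 7 ligands (median 7) and young arrays 3 to 8 (median 4), and the groups overlapped.

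**Figure D2:**
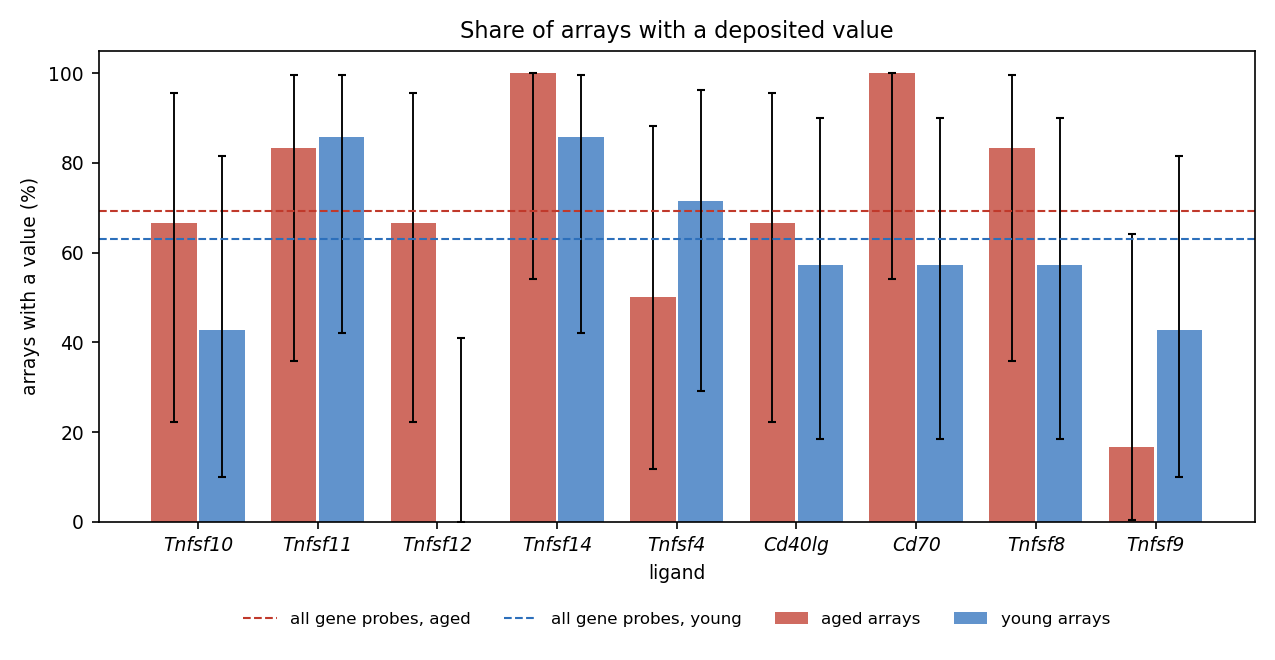
Percent of arrays with a deposited value for each of the 9 ligands, aged (red, of 6 arrays) and young (blue, of 7 arrays), with exact 95% intervals. Dashed lines give the share over all 96 gene probes, 69.3% aged and 62.9% young. The intervals of the age groups overlap for every ligand, Tnfsf12 (66.7% against 0%) included, which is not a test of a difference.

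For the levels, 7 of the 9 ligands had at least 3 values in each group and entered a limma fit of log2 ratios over the 70 gene probes that met this rule. None of the 7 passed an adjusted p of 0.05, where 1 of the 70 probes (1.43%) did. None had an unadjusted p under 0.05 either, which 4 of the 70 probes had. An exact permutation test per probe called 0 of all tested probes after adjustment, the ligands included. With the few values that each ligand had, this test could not have called a lone ligand. Old arteries had the higher mean log2 ratio for 4 ligands (Tnfsf10, Tnfsf11, Tnfsf14 and Cd40lg) and the lower for 3 (Tnfsf4, Cd70 and Tnfsf8), with a median difference of 0.28 over the 7, beside 0.06 over all 70 probes. The differences ran from -0.66 to 0.41, and 0 of the 7 reached 1 in size, which 9 of the 70 probes did. With arrays centred on the reference genes 3 of the 7 were higher, with centring on the 15 always-measured probes 1 was (Tnfsf10, by 0.01), and with blanks at 0.01 6 were.

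Tnfsf10, or TRAIL, binds death receptors such as Tnfrsf10b and kills many transformed cells while sparing most normal ones. Its ratios were 0.07, 0.09, 0.20 and 0.04 on aged replicates 1, 2, 5 and 6, and 0.03, 0.05 and 0.22 on young replicates 3, 6 and 7. The groups overlapped over nearly their whole range, and each held a single array above 0.1. Both linear means were 0.1 (SD 0.070, n = 4 aged, and 0.104, n = 3 young), and the log2 difference was 0.29 (95% interval -1.39 to 1.97, adjusted p = 0.96 by limma). Tnfrsf10b was blank on most arrays, with 0.05 on 1 aged array and 0.03 to 0.05 on 3 young arrays. Ligand and receptor had a value together on 1 aged and 1 young array.

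Tnfsf11, or RANKL, drives osteoclast formation through its receptor Tnfrsf11a (RANK), while Tnfrsf11b (osteoprotegerin) is a secreted decoy that binds both Tnfsf11 and Tnfsf10. Tnfsf11 had 0.06, 0.07, 0.06, 0.30 and 0.07 on aged replicates 1, 2, 4, 5 and 6. On the 6 young arrays with a value it ran from 0.03 to 0.15, with a median of 0.065. All aged ratios but that of replicate 5 lay inside the young range. The means were 0.112 ± 0.105 (SD, n = 5) aged and 0.0817 ± 0.0553 (SD, n = 6) young. The log2 difference was 0.41 (95% interval -0.84 to 1.66, adjusted p = 0.91 by limma), and without aged replicate 5 it was -0.03. Tnfrsf11a had a value on all 13 arrays, with a mean of 1.66 ± 0.80 (SD, n = 6) for the aged group, 1.14 ± 0.61 (SD, n = 7) for the young group and a log2 difference of 0.55 (95% interval -0.53 to 1.62, adjusted p = 0.86 by limma). Tnfrsf11a is among the 15 probes measured on every array, whose mean log2 ratio was -0.25 on aged and -1.06 on young arrays. The decoy Tnfrsf11b had a value on 1 aged array (0.04) and 2 young arrays (0.02 and 0.05).

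Tnfsf14, or LIGHT, is a ligand of activated T cells that signals through Ltbr and Tnfrsf14. It had the fewest blanks of the 9 ligands, with a value on all 6 aged and on 6 of 7 young arrays, and its precision was correspondingly the best of the 7 tested (SE 0.55). The aged ratios ran from 0.11 to 0.70 with a median of 0.33, and the young ratios from 0.10 to 0.43 with a median of 0.275. The young values lay within the aged ones except for the lowest. The means were 0.337 ± 0.209 (SD, n = 6) aged and 0.26 ± 0.128 (SD, n = 6) young, and the log2 difference was 0.31 (95% interval -0.83 to 1.44, adjusted p = 0.93 by limma). Without aged replicate 5, which held the ratio of 0.70, it was 0.04. It was -0.50 after centring on the 15 probes. Ltbr had a value on 5 aged and 6 young arrays and a log2 difference of 0.08 (95% interval -1.04 to 1.21, adjusted p = 0.98 by limma).

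Tnfsf4, Cd70, Tnfsf8 and Tnfsf9 are costimulators of T cells, and Cd40lg is itself carried by activated T cells. Tnfsf4, or OX40 ligand, is found on antigen-presenting cells and on activated endothelium. It had 0.01, 0.06 and 0.02 on aged replicates 1, 4 and 6, and 0.03, 0.03, 0.04, 0.01 and 0.09 on young replicates 1, 3, 5, 6 and 7. The groups overlapped, with a log2 difference of -0.47 (95% interval -2.08 to 1.14, adjusted p = 0.91 by limma). Rounding alone allows any difference from -1.24 to 0.23, so that its direction is not fixed by the deposited digits. Its receptor Tnfrsf4 had a value on 1 aged and 4 young arrays, together with the ligand on 0 aged and 2 young arrays.

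Cd40lg, the CD40 ligand of activated T cells and platelets, activates endothelium through Cd40. Its ratios were 0.08, 0.08, 0.04 and 0.07 on aged replicates 1, 2, 4 and 5. They were 0.17, 0.02, 0.04 and 0.06 on young replicates 1, 2, 3 and 6. The 4 aged arrays lay inside the wider young range (SD 0.019 and 0.067, n = 4 and 4). The log2 difference was 0.28 (95% interval -1.17 to 1.73, adjusted p = 0.96 by limma), and the linear means, 0.0675 and 0.0725, stood the other way round. It was 0.84 without young replicate 1 and -0.19 without young replicate 2. Cd40 had a value on 5 arrays of each group, with means of 0.122 ± 0.121 (aged; SD, n = 5) and 0.116 ± 0.070 (young; SD, n = 5).

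Cd70 is the ligand of the lymphocyte receptor Cd27. Among the 7 it had the lowest log2 difference, yet it had a value on more aged than young arrays. All 6 aged arrays had a Cd70 ratio, from 0.01 to 0.19 with a median of 0.04, while young replicates 2, 3, 5 and 6 had 0.06, 0.04, 0.09 and 0.10 and the other 3 were blank. The young ratios lay inside the aged range. The log2 difference was -0.66 (95% interval -2.22 to 0.89, adjusted p = 0.86 by limma), the linear means were 0.0733 ± 0.0747 (SD, n = 6) and 0.0725 ± 0.0275 (SD, n = 4), and with the blanks at 0.01 the difference was 0.52 (adjusted p = 0.99 by limma). The direction for Cd70 therefore differed between the level on arrays with a value and the share of arrays with one (Fisher's exact p = 0.19, adjusted p = 1). Without aged replicate 5, the array with the ratio of 0.19, the log2 difference was -1.09, and without aged replicate 1 it was -0.24.

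Its receptor Cd27 had the same split, with a value on 5 aged arrays (0.054 ± 0.022) and 3 young arrays (0.150 ± 0.080; SD). The log2 difference of Cd27 was -1.45 (95% interval -2.87 to -0.03, unadjusted p = 0.046, adjusted p = 0.64 by limma). Cd70 and Cd27 had a value together on 5 aged arrays and 1 young array. Since Cd70 had a value on all 6 aged arrays, the aged count is that of Cd27 alone.

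Tnfsf8, or CD30 ligand, had 0.03, 0.06, 0.14, 0.01 and 0.04 on aged replicates 1, 2, 3, 4 and 6, and 0.11, 0.05, 0.03 and 0.03 on young replicates 1, 3, 4 and 7. The groups overlapped, with linear means of 0.056 and 0.055. The log2 difference was -0.24 (95% interval -1.73 to 1.25, adjusted p = 0.96 by limma), within a rounding range of -0.73 to 0.17, and it was 0.26 without aged replicate 4 and -0.70 without aged replicate 3. Its receptor Tnfrsf8 had a value on 3 aged arrays (0.030 ± 0.010) and 4 young arrays (0.055 ± 0.024; SD), a log2 difference of -0.84 (95% interval -2.26 to 0.57, adjusted p = 0.86 by limma). Tnfsf9, the 4-1BB ligand, had too few values for the fit. It had 0.14 on aged replicate 5, and 0.09, 0.03 and 0.02 on young replicates 3, 4 and 6, so that the lone aged ratio was above all young ones.

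**Figure D3:**
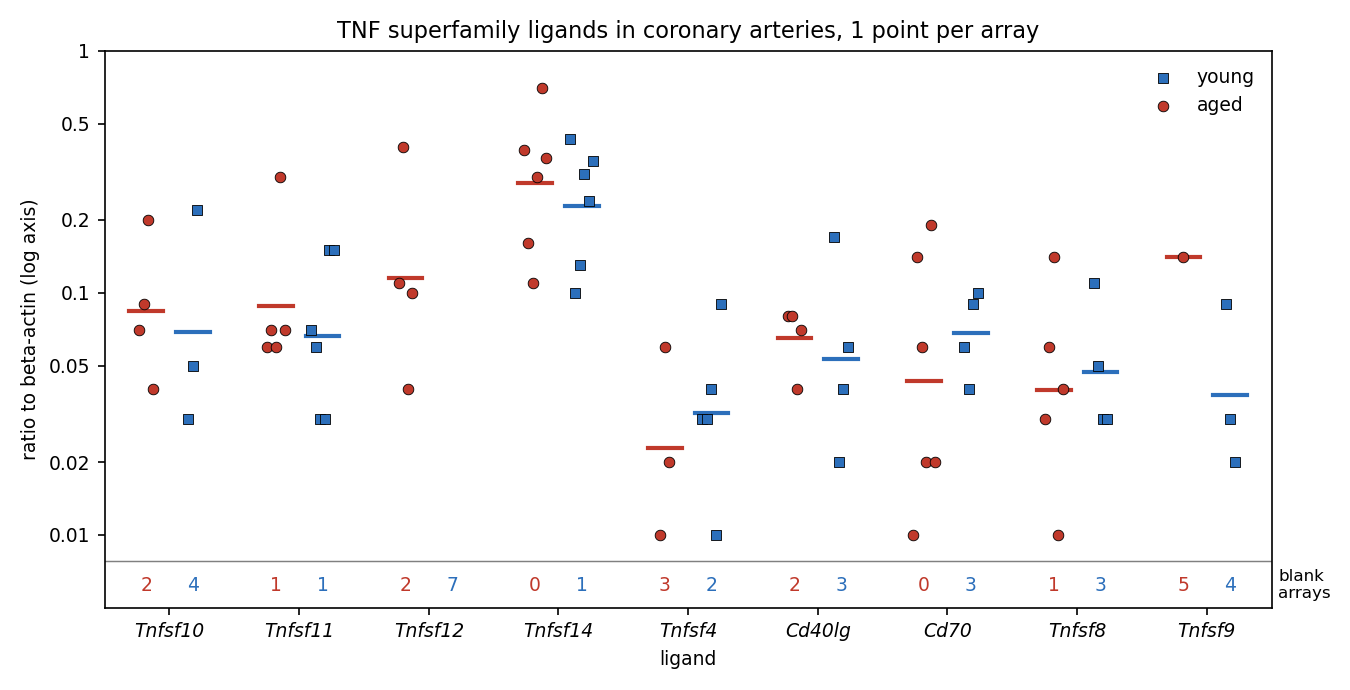
Ratio to beta-actin (log axis) of the 9 ligands, 1 point per array with a value, aged in red circles and young in blue squares; bars are the means of the log2 ratios and the digits under the line count blank arrays. The groups overlap for the 7 ligands with 3 or more values in each, and Tnfsf12 has 4 aged points and 7 young blanks.

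Single arrays held several of the highest ligand ratios. Aged replicate 5 held the highest aged ratio of 5 of its 7 measured ligands, Tnfsf10, Tnfsf11, Tnfsf14, Cd70 and Tnfsf9, the last with no other aged value. It was also the aged array of highest level over the 15 probes measured everywhere (0.15). Without it 2 of the 7 tested ligands had a higher mean in aged arteries (Tnfsf14 and Cd40lg), in place of 4. Among the young arrays, replicate 1 had the lowest level over those 15 probes (-2.50) and yet the highest young ratio of 3 of its 4 measured ligands, Tnfsf14 (0.43), Cd40lg (0.17) and Tnfsf8 (0.11). Young replicate 7, of the highest young level (0.12), held the highest young ratio of Tnfsf10 and Tnfsf4 and shared that of Tnfsf11. The ligands thus did not follow the level of the 15 probes on every array. Without young replicates 1 and 2 together, 6 ligands could be tested, 4 of them with a higher mean in aged arteries, and none passed limma.

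**Figure D4:**
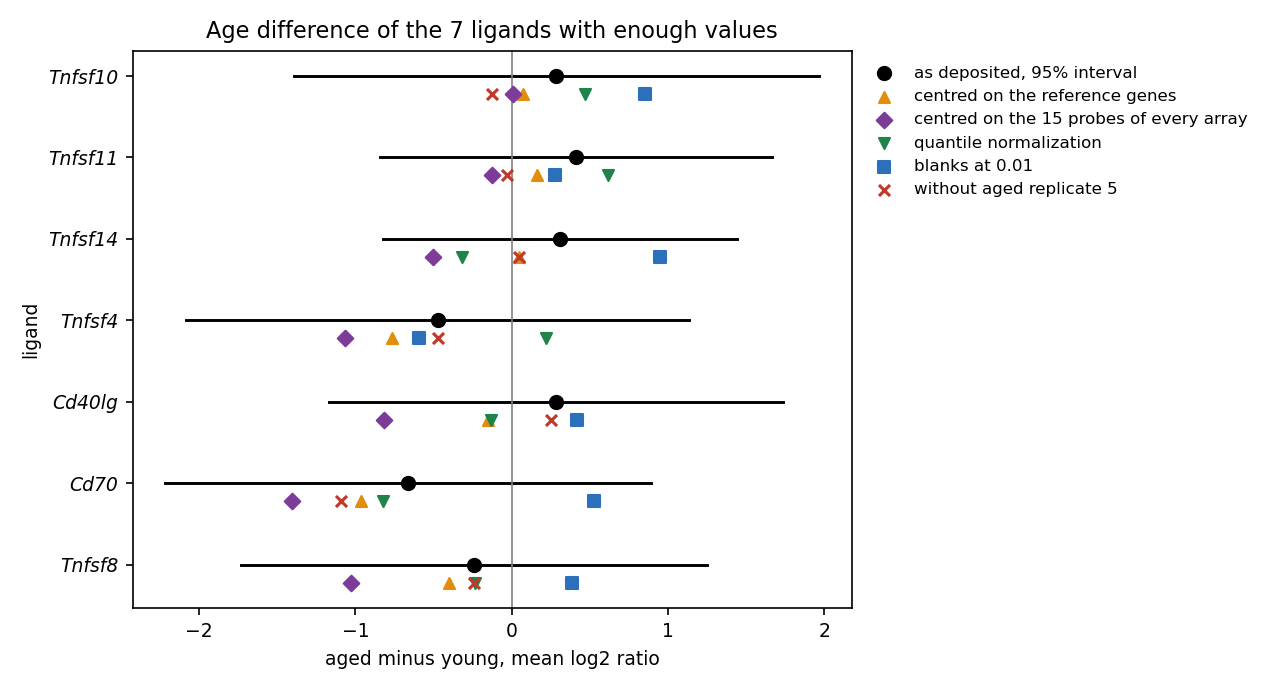
Aged minus young mean log2 ratio of the 7 tested ligands (black points with limma's 95% intervals), with the values under other scalings, with blanks at 0.01, and without aged replicate 5 below each. All 7 intervals span 0, and each ligand has at least 1 of these alternatives on the other side of 0 from its main value.

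Receptors and adaptors were counted from lists. The receptor list held 21 symbols, not all of them receptors of the 9 ligands, and 9 were on the array. Of the 6 with enough values, 3 were on average higher and 3 lower in the aged group. Their log2 differences ran from -1.45 (Cd27) to 0.61 (Tnfrsf25, the death receptor DR3, which was paired with none of the ligands here). The Tnfrsf25 ratio was 1.32 ± 0.52 on aged (SD, n = 6) and 1.08 ± 0.70 on young arrays (SD, n = 7). None of the 6 passed limma in either direction. The symbols Tnfrsf12a, Tnfrsf14 and Tnfrsf9 were on the list, and no named probe of the array carried them. The partner of Tnfsf12 thus has no value under its name. Of the TRAF adaptors, which carry signals of these receptors, 5 of 6 were on the array, 2 with a higher and 3 with a lower mean (-0.51 to 0.95), and 0 passed in either direction. The largest difference was that of Traf1, 0.582 ± 0.222 on aged (SD, n = 6) against 0.309 ± 0.140 on young arrays (SD, n = 7). Its log2 difference was 0.95 (95% interval -0.02 to 1.92, unadjusted p = 0.055, adjusted p = 0.64 by limma). Traf1 and Tnfrsf25 had no blanks and so count among the 15 always-measured probes. The mean log2 ratio of those 15 was itself higher on aged arrays, -0.25 against -1.06 on young arrays. With arrays centred on them, 0 of the 70 probes passed limma.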

How the data were processed

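The deposited table holds 1 value for each of 100 probes on 13 arrays. These are linear ratios as deposited by the authors, taken from the values to be relative to beta-actin, since the 2 Actb spots average 1 on each array. No source used here names the scanner, the background correction or the software. Probe names come from the platform annotation (91 named, 9 gene probes unnamed). All 9 ligand symbols occur in the rat gene table of GRCr8, but 0 of their gene IDs and 0 of their accessions do, so the species of the probe sequences is unsettled and no coordinates or sequences are given.

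Groups were read from the labels. Log2 ratios were fitted with limma 3.58.1 in R 4.3.3 (lmFit, eBayes, two-sided, age as the only factor), with no pseudocount, blanks missing, at least 3 values in each group, and Benjamini-Hochberg adjustment over all 70 probes tested (threshold 0.05). The 4 reference spots stayed out. Arrays with a value were compared by two-sided Fisher's exact tests over 96 probes (scipy 1.17.1). The rounding range moves every ratio by 0.005 either way. The limma fit was run on simulated data with independent noise, without array-wide shifts in level. The Fisher step was run on a simulated probe with values on all aged and no young arrays, which must give the smallest p. The rule for named genes took every ligand, the listed receptors and TRAF adaptors by count (with values beside their ligand), and the 5 probes most like Tnfsf12 in values and blanks, ties by symbol. Alternatives covered scaling, pseudocount (0.02), blanks, filters, test, scale, replicate block and left-out arrays; leaving out young replicates 1 and 2 together, and all alternatives for blanks per array, were added after seeing the data. The members and lists were chosen with earlier results of these data known.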

Additional observations from a re-analysis of the deposited data

Results flagged for a closer look

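The Tnfsf11 ratio of aged replicate 5 was 0.30, far above those of the other 4 aged arrays with a value, the nearest of which was 0.07. It was the 1 value marked in a search of 15 groups of 4 to 7 values (the ligands and the blanks per array), in which chance marks about 1 in 20.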

How the results depend on the processing

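Under every alternative run, 0 of the ligands tested passed limma or Fisher's exact test over all probes, and blanks per array stayed fewer on aged arrays (-3.37 to -8.50 with any array left out, -8.50 with the replicate block and -5.50 without young replicates 1 and 2). Directions of the log2 differences, none past the threshold, turned as follows. Centring on the reference genes gave Cd40lg -0.15. Centring on the 15 probes gave Tnfsf11 -0.13, Tnfsf14 -0.50 and Cd40lg -0.81. Quantile normalization gave Tnfsf14 -0.32, Tnfsf4 0.22 and Cd40lg -0.13, and median centring gave Tnfsf4 0.0051. Blanks at 0.01 gave Cd70 0.52 and Tnfsf8 0.38. On linear ratios Cd40lg differed by -0.005, Cd70 by 0.00083 and Tnfsf8 by 0.001. With the replicate block 6 ligands could be fitted, 0 passed, and Cd70 turned to 0.14; same-numbered arrays deviated together (correlation over 0.1) in 3 of 6 pairs, and in these 3 the aged array correlated best with its own number, which leaves undecided whether the numbers mark a shared batch or day. Without young replicates 1 and 2 Tnfsf8 was 0.16. With 1 array left out the ranges were -0.13 to 0.64 for Tnfsf10, -0.033 to 0.64 for Tnfsf11, -0.19 to 0.84 for Cd40lg and -0.70 to 0.26 for Tnfsf8, while Tnfsf14 (0.04 to 0.58), Tnfsf4 (-0.89 to -0.10) and Cd70 (-1.09 to -0.24) kept their sign. At a minimum ratio of 0.05 the share of arrays turned for Tnfsf11 (26.2 points), Tnfsf4 (2.38) and Tnfsf9 (2.38), and for Tnfsf11 without aged replicate 3 (14.3; range -16.7, without young replicate 1, to 14.3). The cause of these turns was not tested. Tnfsf4 could not be tested without aged replicates 1, 4 or 6 or above the 25th percentile filter, Tnfsf10 without young replicates 3, 6 or 7 or with the block, and Cd40lg without young replicates 1 and 2 together. Signal over background is unknown, so what the blanks hide cannot be bounded.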
